A study of Homo sapiens with 10 samples.

Results

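Steroid receptors are held ready for hormone by a relay of chaperones. HSP40 and HSP70 proteins bind the newly made receptor first, STIP1 (HOP) passes it to HSP90, and the mature complex carries p23 together with an immunophilin such as FKBP5 (FKBP51) or FKBP4 (FKBP52). FKBP5 is at once a part of this complex and a textbook target of progesterone, glucocorticoid and androgen receptors, which makes it a common readout of receptor activity. The genes described here are FKBP5, FKBP4, HSP90AA1, HSP90AB1, PTGES3, STIP1, HSPA8, HSPA4, DNAJB1 and BAG1, taken as a list of receptor chaperones and cochaperones by name. Of these 10 genes, 9 had at least 1 probe set annotated to that gene alone, 20 probe sets in all, among 11963 genes on the array. HSPA8, the constitutive HSP70 of the cytosol, was represented only by 3 probe sets that also list other genes, and no value is given for it.

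RNA came from T47D breast cancer cells, in clonal lines derived from the progesterone receptor (PR)-null T47D-Y cells. iKR cells carry SUMO-deficient K388R PR-B, iWT cells carry wild-type PR-B and iEV cells carry the empty vector, each under control of the dimerizer AP21967. Cells received AP21967 for 2 days or none, and iKR and iWT cells then received the synthetic progestin R5020 or vehicle for 6 h, while iEV cells received vehicle only. Each of the 10 conditions was hybridized to 1 Affymetrix human expression array. Each line is a single clone, so a difference between lines cannot be told apart from a difference between clones. The methods give 1 nM AP21967 and 10 nM R5020, whereas the sample descriptions, read literally, give 10 nM and 100 nM.

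The values are Robust Multi-array Average (RMA) signals on the log2 scale, on which 1 unit is a 2-fold difference, and the medians of the 10 arrays lay between 8.12 and 8.15. All 8 luminal breast cancer markers were measured, with means over the arrays of 10.25 (ESR1) to 15.01 (KRT18). Means of the basal and myoepithelial markers measured ran from 5.81 (KRT14) to 7.90 (KRT5). Those of leukocyte markers ran from 6.11 (PTPRC) to 8.22 (CD3E), and those of fibroblast markers from 5.53 (COL3A1) to 9.70 (COL1A1). PGR, the gene introduced, read 11.38, 12.08, 11.43 and 10.65 in iKR (AP21967 with R5020, AP21967 with vehicle, no AP21967 with R5020, no AP21967 with vehicle), and 11.89, 11.34, 11.77 and 11.12 in iWT in the same order. In iEV it read 6.17 with AP21967 and 6.25 without. PGR signal was thus high in both receptor lines also without the inducer. Because each condition has 1 array, a difference between 2 arrays has no replicate check and is given with no p. The shared response of the receptor lines was tested with limma over 10911 genes whose highest array reached log2 6, with iKR and iWT as the only replication, and calls were made at a Benjamini-Hochberg adjusted p under 0.05.

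Promoter windows are shown for the gene that responded and for a heat-shock-regulated partner, as reference sequence in which the candidate elements can be read. They run from 250 bases before to 50 bases after an annotated start (RefSeq, GRCh38.p14), 5′ to 3′ on the gene's strand, with motif matches in capitals. FKBP5 has 2 such windows, both on the minus strand, at chr6:35728534-35728833 and chr6:35688866-35689165, and HSP90AA1 also has 2 on the minus strand, of which the one at chr14:102086995-102087294 is shown because it holds heat shock units. Which start the FKBP5 probe set reports on was not determined.
FKBP5, first window: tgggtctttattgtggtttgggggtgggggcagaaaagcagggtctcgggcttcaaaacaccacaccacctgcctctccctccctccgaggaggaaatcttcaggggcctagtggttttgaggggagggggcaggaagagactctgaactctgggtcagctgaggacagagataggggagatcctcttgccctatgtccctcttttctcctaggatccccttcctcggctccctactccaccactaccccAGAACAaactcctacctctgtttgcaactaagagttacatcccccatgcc
FKBP5, second window: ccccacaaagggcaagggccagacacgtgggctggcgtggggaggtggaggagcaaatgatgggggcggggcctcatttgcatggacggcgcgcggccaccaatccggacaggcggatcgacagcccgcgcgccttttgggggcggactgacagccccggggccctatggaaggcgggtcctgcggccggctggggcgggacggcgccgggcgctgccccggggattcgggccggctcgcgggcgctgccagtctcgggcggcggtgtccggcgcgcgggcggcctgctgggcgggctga
HSP90AA1: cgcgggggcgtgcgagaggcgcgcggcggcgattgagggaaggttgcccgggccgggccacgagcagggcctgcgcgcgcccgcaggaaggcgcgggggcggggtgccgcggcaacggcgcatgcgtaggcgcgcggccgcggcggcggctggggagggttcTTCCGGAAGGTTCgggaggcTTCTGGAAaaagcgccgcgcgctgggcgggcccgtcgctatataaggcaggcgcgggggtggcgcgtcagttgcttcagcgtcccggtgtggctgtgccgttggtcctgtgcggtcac

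Heat shock units (GAANNTTC or TTCNNGAA, which can overlap each other, both strands searched) mark the DNA element bound by heat shock factor. The HSP90AA1 window shown holds 3 of them, its other window (chr14:102139700-102139999) holds 0, and neither FKBP5 window holds any. The capitals in the first FKBP5 window are the receptor hexamer AGAACA (or TGTTCT on the other strand), which begins at the annotated start. Windows of 9 of the 10 genes were given, 16 windows in all. A heat shock unit was present in 6 of the 16 windows (of DNAJB1, HSP90AA1, HSP90AB1, HSPA8 and STIP1), against 13.5% of all 35116 windows. A receptor hexamer was present in 3 of the 16 (of FKBP5, HSP90AB1 and HSPA4), against 14.8% of all windows. The full spaced palindrome (GNACA, any 3 bases, TGTNC) was in none of the 16 windows and in 0.39% of all windows. These matches describe letters in 300-base windows only, and enhancers elsewhere were not searched.

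FKBP5 was the only measured member called in the response to R5020. With AP21967, its level was 10.92 with R5020 against 7.88 with vehicle in iKR, and 10.76 with R5020 against 7.81 with vehicle in iWT. Without AP21967, it was 8.86 with R5020 against 8.04 with vehicle in iKR, and 9.11 with R5020 against 8.24 with vehicle in iWT. In iEV it was 9.15 with AP21967 and 8.98 without. Both arrays with AP21967 and R5020 lay above all 8 others, and the 4 vehicle arrays of the receptor lines were the lowest of the 10. Over the 10 arrays FKBP5 spanned 3.11 (log2), a wider range than all but 16 of 10911 genes, whose median range was 0.36.

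**Figure D1:**
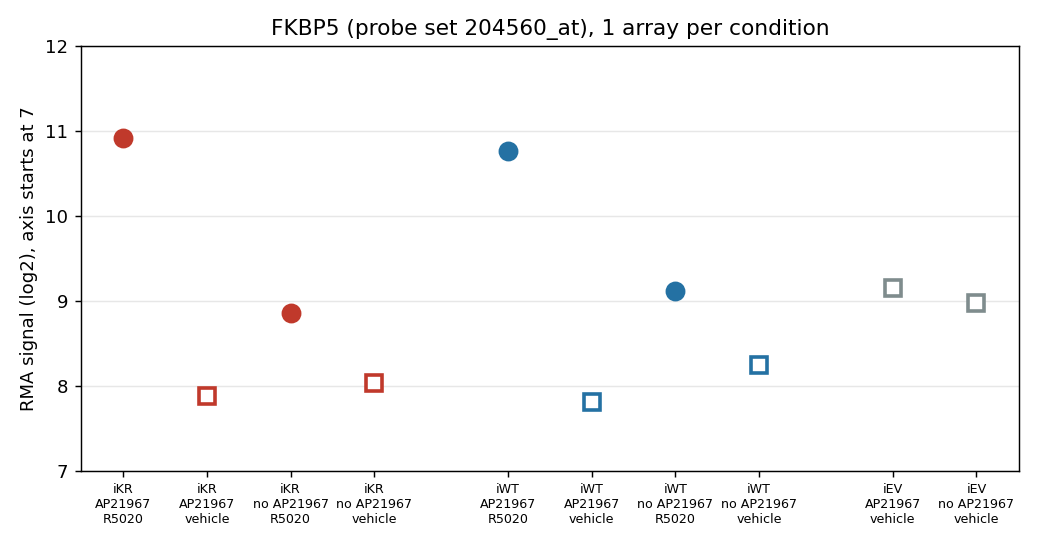
FKBP5 signal (RMA, log2, axis from 7) on each of the 10 arrays, by line, inducer and ligand, with filled circles for R5020 and open squares for vehicle. The R5020 arrays with AP21967 read 10.92 in iKR and 10.76 in iWT, above both iEV arrays at 9.15 and 8.98, while the vehicle arrays of iKR and iWT read 7.81 to 8.24.

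With the inducer, FKBP5 was higher with R5020 than with vehicle by 3.04 (log2; 8.21-fold) in iKR and by 2.95 (7.74-fold) in iWT. Of 10911 genes, 2 had a larger difference in iKR and 2 in iWT. FKBP5 was the only member past 2.0 fold, a threshold that 0.999% of all genes passed upward in iKR and 0.513% in iWT. The shared limma estimate was 2.99 (SE 0.08, 95% confidence interval 2.82 to 3.17, adjusted p = 3.8e-07), a 7.97-fold rise. In that fit 5.23% of all genes were called higher and 6.25% lower, and 1 of the 9 measured members was called. The responses of the receptor lines differed by 0.09 (iKR minus iWT), less than the median absolute difference over all genes of 0.15. That difference comes from single arrays and was not tested.

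FKBP5 was also higher with R5020 where no inducer was given. The difference was 0.82 (1.77-fold) in iKR and 0.87 (1.82-fold) in iWT, past 1.5 fold in both lines, which 0.0733% of genes passed upward in iKR and 0.0917% in iWT. The shared estimate was 0.84 (SE 0.08, 95% confidence interval 0.67 to 1.02), and with an adjusted p = 0.0212 from limma FKBP5 was the only one of 10911 genes called, 0.00917% of those tested. At an unadjusted p under 0.05 the same fit held 431 genes. The call was lost with an adjusted p = 0.0505 when all 19312 probe sets were fitted, and with an adjusted p = 0.487 when line was the only block. Beside this response stand the PGR levels of 10.65 in iKR and 11.12 in iWT without AP21967 and R5020. With R5020 and no AP21967, PGR read 11.43 in iKR and 11.77 in iWT. The part of PGR signal without the inducer in the FKBP5 response was not tested.

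The response was larger with the inducer than without it. Net of the difference without AP21967, the R5020 difference of FKBP5 was 2.21 in iKR and 2.08 in iWT, and the shared estimate was 2.15 (SE 0.11, 95% confidence interval 1.90 to 2.40, adjusted p = 4.8e-05 from limma). Of all genes 1.41% were called higher and 0.687% lower in this contrast, and no other member was called. Among the R5020-treated cells, FKBP5 was higher with AP21967 than without by 2.06 in iKR and 1.65 in iWT.

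AP21967 alone was not followed by a called change. With vehicle, AP21967 minus none was -0.16 in iKR and -0.43 in iWT and 0.18 in iEV. The shared effect over the 3 lines was -0.14 (SE 0.10, 95% confidence interval -0.37 to 0.10, adjusted p = 0.705), and 0% of the 10911 genes were called, with 981 at an unadjusted p under 0.05. A fit with a separate AP21967 effect in iEV, added after the opposite signs were seen, gave -0.29 in the receptor lines (95% confidence interval -0.54 to -0.05, adjusted p = 0.91) and a difference from iEV of -0.47 (adjusted p = 1.00), both from limma. Neither was called.

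Without ligand, FKBP5 was lower in cells that carry the receptor than in empty-vector cells. The difference from iEV was -1.27 in iKR and -1.34 in iWT with AP21967 (log2), and -0.94 in iKR and -0.73 in iWT without it. Each is a difference of single arrays. FKBP5 was the only member more than 1.5 fold lower than iEV in both inducer states, in iKR (1.61% of genes) and in iWT (2% of genes). With R5020 and no AP21967 the level was 8.86 in iKR and 9.11 in iWT, against 8.98 in vehicle-treated iEV cells.

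FKBP4, the other immunophilin of the list, was not called. This gene, which in mice is needed for full PR activity in the uterus, read 11.30 with R5020 against 11.21 with vehicle in iKR with AP21967, and 11.45 with R5020 against 11.50 with vehicle in iWT. Without AP21967 it read 11.36 with R5020 and 11.36 with vehicle in iKR, and 11.54 with R5020 and 11.51 with vehicle in iWT. The iEV arrays read 11.61 with AP21967 and 11.57 without. The shared R5020 effect with AP21967 was 0.02 (95% confidence interval -0.16 to 0.20, adjusted p = 0.912 from limma). All 4 iKR arrays (11.21 to 11.36) lay below all 4 iWT arrays (11.45 to 11.54), and the second FKBP4 probe set gave the same order (10.54 to 10.74 in iKR against 10.79 to 10.95 in iWT). FKBP4 was the only one of the 9 lead probe sets whose iKR and iWT arrays did not overlap. Over all genes, 4.29% had iKR below and 5.89% had iKR above, so that 1 of 9 is near the background. Among the other probe sets, 1 of DNAJB1 (10.52 to 10.75 in iKR against 10.77 to 10.87 in iWT) and 1 of HSPA4 (8.55 to 8.85 in iKR against 8.87 to 8.98 in iWT) were separated in the same direction.

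Neither HSP90 gene was called. HSP90AA1, the stress-inducible cytosolic HSP90, lay between 14.12 and 14.37 on all arrays, and its shared R5020 effect with AP21967 was -0.03 (95% confidence interval -0.21 to 0.15, adjusted p = 0.848 from limma). By line, R5020 minus vehicle was -0.12 in iKR and 0.05 in iWT with AP21967. One of its 4 probe sets differed more in iKR with AP21967, at 13.70 with R5020 against 14.06 with vehicle, and by 0.01 in iWT. HSP90AB1, the constitutive form, lay between 13.70 and 14.05, with a shared effect of 0.05 (95% confidence interval -0.12 to 0.23, adjusted p = 0.707). The receptor-line arrays of HSP90AB1 on vehicle, 13.84 to 14.01, lay above both iEV arrays at 13.70 and 13.72.

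The cochaperones that act with HSP90 were not called either. PTGES3, the p23 protein that stabilizes the mature complex, lay between 13.37 and 13.63, and its shared R5020 effect with AP21967 was -0.03 (95% confidence interval -0.20 to 0.14, adjusted p = 0.849 from limma). STIP1, the adaptor between HSP70 and HSP90, differed by 0.12 in iKR and -0.13 in iWT, and its shared effect was -0.00077 (95% confidence interval -0.20 to 0.20, adjusted p = 0.998). Its level lay between 10.93 and 11.20.

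Of the HSP70 partners, HSPA4 had the largest shared R5020 effect with AP21967, which was not called. HSPA4, an HSP110-type nucleotide exchange factor, read 10.84 with R5020 against 10.62 with vehicle in iKR with AP21967, and 10.78 with R5020 against 10.69 with vehicle in iWT. Its shared effect was 0.15 (95% confidence interval -0.03 to 0.34, adjusted p = 0.263 from limma). Its 4 probe sets did not all point one way. One gave 0.31 in the fit over all probe sets (unadjusted p = 0.00586, adjusted p = 0.0543), and another gave -0.01. For R5020 with AP21967, that unadjusted p was the only one under 0.05 among the 19 probe sets of the other 8 members. None of the 19 was called, against 10.4% of all 19312 probe sets called in either direction.

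DNAJB1, the HSP40 that loads clients onto HSP70, read 11.45 with R5020 against 11.49 with vehicle in iKR with AP21967, and 11.71 with R5020 against 11.70 with vehicle in iWT. Without AP21967 it read 11.59 with R5020 and 11.70 with vehicle in iKR, and 11.68 with R5020 and 11.70 with vehicle in iWT. The iEV arrays read 11.95 with AP21967 and 11.90 without. The shared R5020 effect with AP21967 was -0.01 (95% confidence interval -0.19 to 0.16, adjusted p = 0.934 from limma). BAG1, a nucleotide exchange factor that ties HSP70 to receptors, read 10.80 with R5020 against 10.89 with vehicle in iKR with AP21967, and 10.65 with R5020 against 10.81 with vehicle in iWT. Without AP21967 it read 11.00 with R5020 and 11.01 with vehicle in iKR, and 10.90 with R5020 and 10.89 with vehicle in iWT. The iEV arrays read 10.31 with AP21967 and 10.27 without. Its shared effect was -0.12 (95% confidence interval -0.29 to 0.05, adjusted p = 0.356), and its second probe set gave -0.16.

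**Figure D2:**
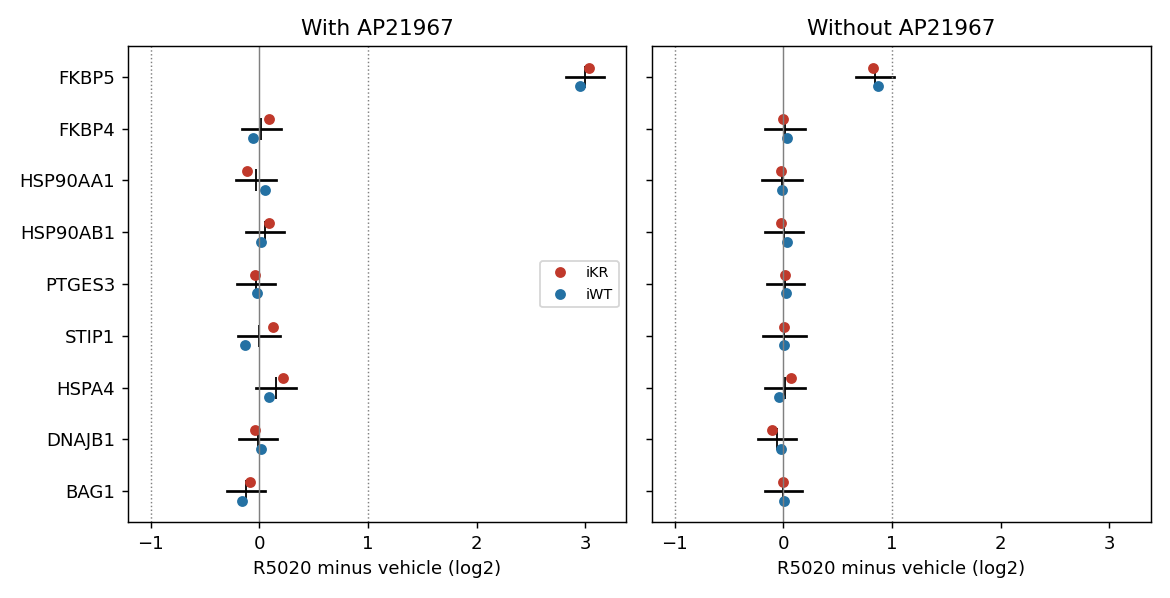
R5020 minus vehicle (log2) for the lead probe set of each of the 9 measured members, with AP21967 on the left and without it on the right. Dots are single-array differences in iKR and iWT, the tick and bar are the shared limma estimate and its 95% confidence interval, and dotted lines mark 2.0 fold. FKBP5 stands at 2.99 with AP21967 and 0.84 without, and the other 8 estimates lie between -0.12 and 0.15 with AP21967.

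Over the 8 members other than FKBP5, the shared R5020 effects ran from -0.12 to 0.15 with AP21967 and from -0.06 to 0.02 without it, and the widest interval limits with AP21967 were -0.29 and 0.34. With AP21967, 2924 of 10911 genes had an unadjusted p under 0.05 from limma, and 431 did without it. For the response with AP21967 minus that without, 1611 genes did, and for AP21967 alone 981. None of the 8 lead probe sets had an unadjusted p under 0.05 in any of these 4 contrasts. Other HSPA4 probe sets did in the limma fit over all probe sets, uncalled. The one at 0.31 with AP21967 also gave 0.34 for the excess over the response without it (unadjusted p = 0.0225, adjusted p = 0.251). Another HSPA4 probe set gave -0.157 for AP21967 alone (unadjusted p = 0.0260, adjusted p = 0.608). The median effect with AP21967 was -0.00077 over the 9 members and 0.01 over all genes tested. These intervals leave room for changes of about those sizes, and a missed threshold does not show that the genes did not change.

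Levels of the members were also compared between lines. On vehicle, the 4 receptor-line arrays lay above both iEV arrays for 2 members, HSP90AB1 and BAG1, and below both for 6, FKBP5, FKBP4, HSP90AA1, PTGES3, STIP1 and DNAJB1. Over all genes 22.1% lay above and 20.7% below, so that such separation was common. After FKBP5, BAG1 had the largest separation, with 10.81 to 11.01 in the receptor lines against 10.27 to 10.31 in iEV, and its second probe set gave 10.47 to 10.68 in the receptor lines against 9.98 to 10.07 in iEV. DNAJB1 had 11.49 to 11.70 in the receptor lines against 11.90 to 11.95 in iEV. For FKBP4 and STIP1 the second probe set overlapped between the receptor lines and iEV, as did 1 of the 4 probe sets of HSP90AA1. HSPA4 overlapped in its lead probe set, while 1 of its others lay lower in the receptor lines (8.55 to 8.96) than in iEV (9.23 to 9.34).

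**Figure D3:**
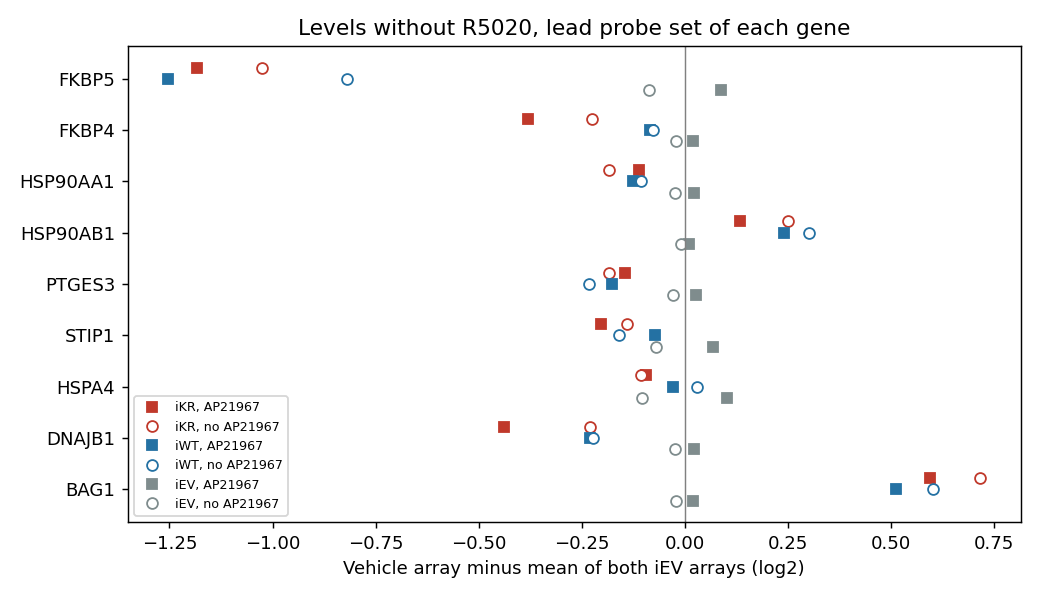
Vehicle arrays of each line minus the mean of both iEV arrays (log2), for the lead probe set of each member, with filled squares for AP21967 and open circles for none. FKBP5 lies lowest and BAG1 highest in the receptor lines, where BAG1 read 10.81 to 11.01 against 10.27 to 10.31 in iEV.

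The genes with levels most like FKBP5 over the 10 arrays were ETV5, GRPEL1, SGK1, COX10 and SRSF7, with Pearson r between 0.94 and 0.96. SGK1, a kinase known as a target of glucocorticoid receptors, also differed widely between R5020 and vehicle, by 1.81 in iKR and 2.11 in iWT with AP21967, and by 0.41 in iKR and 0.57 in iWT without it. ETV5, first in the ranking, differed by 0.12 in each line with AP21967. GRPEL1, a nucleotide exchange factor of mitochondrial HSP70, differed by 0.74 in iKR and 0.65 in iWT. All of these arrays share 3 lines and 1 ligand, and the ranking is a description. Among the members, HSPA4 had an r of 0.70 with FKBP5, and the other 7 lay between -0.28 and 0.07.

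Genes of the wider chaperone lists were called as well, most of them in the longest list, of HSP70, HSP40 and BAG genes. Of 43 other HSP70, HSP40 and BAG genes tested, 10 rose, 1 fell and 32 did not pass in the shared response with AP21967, where 5.23% of all genes were called higher and 6.25% lower, with a median effect of 0.07 against 0.01 over all genes. DNAJB4, an HSP40 protein, read 8.62 with R5020 against 7.47 with vehicle in iKR and 8.76 with R5020 against 7.43 with vehicle in iWT, a shared rise of 1.24 (SE 0.09, adjusted p = 8.5e-05 from limma). BAG2, an inhibitor of the ubiquitin ligase CHIP, rose by 0.89 (SE 0.13, adjusted p = 0.00365), and HSPA2, an HSP70, rose by 0.74 (SE 0.10, adjusted p = 0.00272). GRPEL1 rose by 0.70 (SE 0.08, adjusted p = 0.00101) and DNAJB9, an HSP40 of the endoplasmic reticulum, by 0.55 (SE 0.09, adjusted p = 0.00644). Of this list, 3 genes (DNAJB4, HSPA2 and GRPEL1) were also called for a larger response with AP21967 than without, in a contrast that called 1.41% of all genes higher.

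The other lists are shorter and held 2 called genes. Of 24 other HSP90 cochaperones and cyclophilins tested, 1 rose, close to the 5.23% of all genes called higher, with a list median of 0.02. This was PPID (cyclophilin 40), an immunophilin of the same complex, which read 11.11 with R5020 against 10.74 with vehicle in iKR and 11.23 with R5020 against 10.88 with vehicle in iWT with AP21967 (shared rise 0.36, SE 0.08, adjusted p = 0.0175 from limma). Of 10 other FKBP genes, 1 fell, FKBP3, by 0.29 (SE 0.08, adjusted p = 0.0431), and none rose, against 6.25% of all genes called lower, so that 1 gene in so short a list is near the background. None of 14 heat shock factors and small or mitochondrial chaperones was called, with 1 at an unadjusted p under 0.05. Without AP21967 no gene of these 4 lists was called, with 1 of them at an unadjusted p under 0.05.

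**Figure D4:**
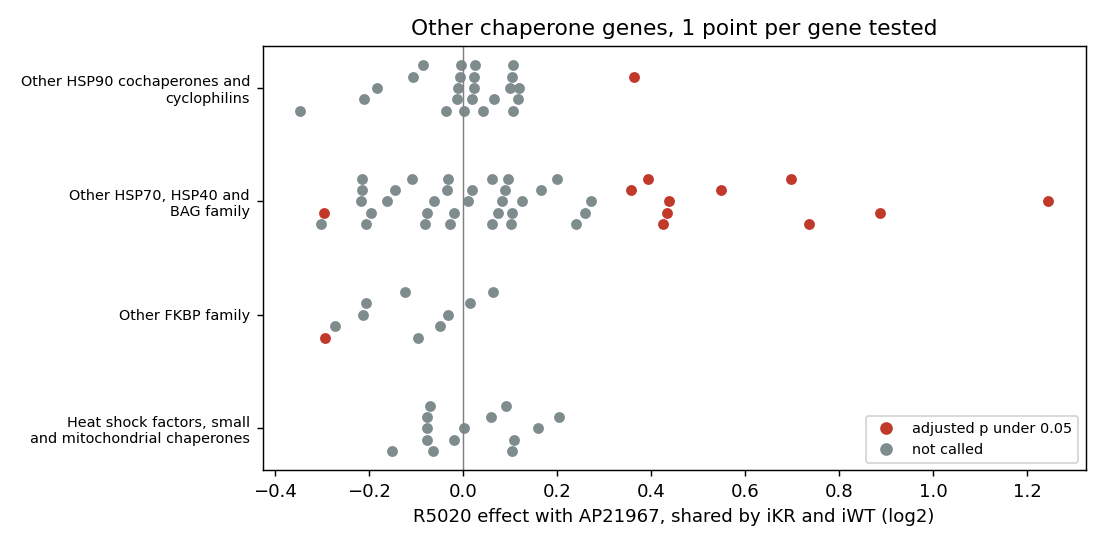
Shared R5020 effect with AP21967 (log2, limma) for each gene tested in 4 lists of other chaperone genes, in red where the adjusted p was under 0.05. The called genes of the HSP70, HSP40 and BAG list reach 1.24 (DNAJB4), and the other lists hold 1, 1 and 0 called genes.

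Of the receptors that these chaperones serve, ESR1 (the estrogen receptor) was called. ESR1 read 8.68 with R5020 against 9.65 with vehicle in iKR and 10.14 with R5020 against 10.75 with vehicle in iWT with AP21967, and fell by 0.79 in the shared fit (SE 0.10, adjusted p = 0.00158 from limma). NR3C1, the glucocorticoid receptor, lay between 6.57 and 6.81 on all arrays, and NR3C2, the mineralocorticoid receptor, between 6.93 and 7.16. PGR differed by -0.71 in iKR and 0.55 in iWT with AP21967, opposite signs in single arrays. Its shared effect of -0.08 was not called (adjusted p = 0.868 from limma). Without AP21967, PGR was higher with R5020 by 0.78 in iKR and 0.65 in iWT, and the shared effect of 0.72 was not called.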

How the data were processed

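Total RNA from 10 conditions of T47D cells was hybridized to Affymetrix arrays, 1 per condition. The authors processed the raw files in R with the packages affy and affyQCReport (versions not given in the sources used here), and the deposited log2 values are background-adjusted, quantile-normalized Robust Multi-array Average signals of 22277 probe sets. From these, 19070 probe sets with 1 listed gene gave 11963 genes, each represented by its probe set of highest mean.

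Genes whose highest array reached log2 6 (10911) were fitted with limma 3.58.1 in R 4.3.3. For R5020, the 8 iKR and iWT arrays were fitted with 4 baseline means, 1 per combination of line and inducer, plus separate ligand effects in the presence and absence of AP21967 (6 parameters, 2 residual degrees of freedom, 8.83 in total with the prior). The AP21967 fit used the 6 vehicle arrays with line as a block (7.58 in total). A response that differs between iKR and iWT goes to the residual, so neither fit tests one receptor against the other, and since the labels name no separate cultures, p-values measure only the spread between these arrays. Single-array differences carry no test. The scripts were tested on simulated data. Arrays have no depth, and their number limits the precision.

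The genes named are all members, the 5 genes of highest Pearson r with FKBP5, up to 5 called genes per wider list by size of effect, and steroid receptors. The members and lists were chosen with earlier results of these data known. Alternatives were other filters, probe set choices, normalizations, moderation settings, blocks and sets of arrays. Promoter windows came from a RefSeq table, and proteins were not compared. Tables were handled in Python 3.11.15 with pandas 2.3.3 and numpy 2.4.6, and figures were drawn with matplotlib 3.10.9.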

Additional observations from a re-analysis of the deposited data

Results flagged for a closer look

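Opposite signs between lines were found for several members in single-array differences. For R5020 with AP21967, the difference in iKR minus that in iWT was 0.15 for FKBP4 (0.09 in iKR, -0.06 in iWT), -0.17 for HSP90AA1 (-0.12 in iKR, 0.05 in iWT), 0.25 for STIP1 (0.12 in iKR, -0.13 in iWT) and -0.055 for DNAJB1 (-0.04 in iKR, 0.01 in iWT). For R5020 without AP21967 it was -0.034 for FKBP4, -0.055 for HSP90AB1, 0.11 for HSPA4 and -0.013 for BAG1. The median absolute difference over all genes was 0.15 with AP21967 and 0.093 without it. Without AP21967, the second probe sets of FKBP4 (-0.064 in iKR, -0.029 in iWT) and HSP90AB1 (0.041 in iKR, 0.025 in iWT) had the same sign in both lines. So did that of BAG1 (-0.079 in iKR, -0.037 in iWT). For AP21967 on vehicle, the difference in iKR minus that in iWT was 0.094 for HSP90AA1, -0.15 for STIP1 and 0.069 for HSPA4. The other HSPA4 probe sets were lower with AP21967 in both lines. These differences between iKR and iWT were not tested, since each condition has 1 array.

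In their lead probe sets, 5 members were lower with AP21967 on vehicle in both iKR and iWT and higher in iEV. In that single iEV comparison, FKBP5 and all 8 other members were above 0. The share of all genes with this pattern was not counted. The second probe set of BAG1 was lower in iEV too (-0.095), and that of DNAJB1 was not lower in iWT (0.0054). Those of FKBP4 and HSP90AB1 kept the pattern. The mean of iKR and iWT minus iEV was -0.47 for FKBP5 (-0.29 in the receptor lines, 0.18 in iEV). It was -0.12 for FKBP4, -0.11 for HSP90AB1, -0.15 for DNAJB1 and -0.15 for BAG1. For the lead probe set of HSPA4 the receptor lines differed in sign (0.01 in iKR, -0.06 in iWT). Their mean of -0.02 stood against 0.21 in iEV, a difference of -0.23. In the fit with a separate AP21967 effect in iEV, the adjusted p of each of these differences was 1.00 (limma), and the unadjusted p for FKBP5 was 0.0344.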

How the results depend on the processing

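The FKBP5 response to R5020 with AP21967 was called under all 11 alternatives (2.97 to 3.003, adjusted p at most 6.5e-06 from limma), and so was its excess over the response without AP21967 (2.11 to 2.15). The response without AP21967 was called under 9 of 11. It stayed at 0.84 but was not called, with 0 members called, when every probe set was fitted or when line was the only block, a fit added after seeing the data. Fitting all 10 arrays with a mean for each iEV array returns the main fit by construction. At 1.5 fold in place of 2.0 fold, 1 member passed without AP21967 in iKR and 1 in iWT. All 44 alternatives of the FKBP5 single-array differences moved by less than 1 SD of a difference between 2 arrays, taken from the moderated residual SD of FKBP5 in the limma fit, and those on probe sets leave it unchanged by construction, since FKBP5 has 1 probe set. The AP21967 effect on FKBP5 changed sign, uncalled, to 0.66 with the R5020 arrays added and to 0.0099 without iWT. The value of 0.66 includes the R5020-treated cells, where AP21967 minus none was 2.06 in iKR and 1.65 in iWT. It is therefore not an estimate for AP21967 alone.

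Over all genes, the R5020 response with AP21967 had 571 genes higher and 682 lower, against 342 higher of the 7241 genes left without _x_at and _s_at probe sets, and 941 higher and 1068 lower of 19312 probe sets. Its excess over the response without AP21967 had 75 lower, against 35 under cyclic loess and 127 with a trended prior. AP21967 alone had 0, against 3 higher without iEV.

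Of 364 alternatives for the other 8 members, none was called and 22 changed the sign of a value near 0, whose cause was not tested. For R5020 with AP21967 these were FKBP4 with median centring (-0.0036), HSP90AA1 without _x_at and _s_at probe sets (0.056), STIP1 with the mean of probe sets (0.052), and under cyclic loess PTGES3 (0.0053), STIP1 (0.045) and DNAJB1 (0.029). Without AP21967 they were FKBP4 (-0.016) and BAG1 (-0.029) with the mean of probe sets, HSP90AA1 (0.032) and BAG1 (-0.058) without _x_at and _s_at probe sets, and HSP90AB1 (-0.0025) under cyclic loess. For the excess with AP21967 they were FKBP4 with median centring (-0.032), HSP90AA1 without _x_at and _s_at probe sets (0.025), HSP90AA1 (0.024) and STIP1 (0.026) under cyclic loess, and DNAJB1 with the mean of probe sets (-0.0086). For AP21967 alone they were FKBP4 (0.017) and DNAJB1 (0.0196) without iKR, and HSPA4 when its probe sets were averaged (-0.045), on leaving out _x_at and _s_at probe sets (-0.157), without iEV (-0.023) and with a separate effect in iEV (-0.023). FKBP4, STIP1 and DNAJB1 have only _s_at probe sets and gave no value where these were left out. By replicate number, no paired analysis was possible because each condition has 1 array. The fits themselves compare R5020 with vehicle within each line and inducer state, and AP21967 with none within each line.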
